A study of Mus musculus with 6 samples.

Results

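The genes described here are the nuclear genes of the mitochondrial respiratory chain, with 7 copies of mitochondrial genes that lie side by side on chromosome 1. The nuclear genes were chosen by a pattern of symbols alone: Nduf (complex I), Sdh (complex II), Uqcr (complex III), Cox4 to Cox8 (complex IV) and Atp5 (complex V). The pattern left out the Ndufaf assembly factors, and also Ndufab1, Ndufa4l2 and Cyc1. It kept Atp5s and Atp5sl, which were counted with complex V by symbol only, whatever their function. This rule gave 83 nuclear genes, and with the 7 copies 90 of the 46517 gene IDs in the tables. Of these, 79 nuclear genes and all 7 copies reached 1 TPM in at least 2 libraries, as did 20232 gene IDs in all. TPM is an abundance per length of transcript that sums to the same total in each library, so levels of different genes can be compared on it.

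RNA was sequenced from E14TG2a, a mouse embryonic stem cell line, labelled wild type, at 3 stages. The stem cells (mESC) were untreated and grew without feeder cells on gelatin in medium with serum and the cytokine LIF. Neuronal progenitors (NPC) and the stage called NC were labelled as neuronal differentiation of the same line. What NC stands for is not written in the labels. The design names glutamatergic pyramidal neurons as its last stage, and NC is read as these. All samples carry embryonic stem cells as their cell type label, and 1 line stands for all stages. Each stage had 2 libraries, called biological replicates but not said to come from separate cultures, so the p-values below measure the spread between these samples only.

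The respiratory chain sits in the inner mitochondrial membrane. Complexes I and II take electrons from NADH and succinate, complex III passes them to cytochrome c, and complex IV, cytochrome c oxidase, hands them to oxygen. The pumping of protons by complexes I, III and IV drives complex V, the ATP synthase. Most subunits are made from nuclear genes and imported, while a small hydrophobic core is encoded by mitochondrial DNA. Pluripotent stem cells are known for a high rate of glycolysis, and neurons for a strong dependence on oxidative phosphorylation.

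By an estimate from the deposited values, the libraries held between 1.57 and 2.27 Gb of aligned bases, and without read counts no counting interval can be given. Pou5f1, Nanog, Esrrb and Zfp42, markers of embryonic stem cells, summed to 3041 and 3614 TPM in mESC and to between 3.89 and 13.0 TPM in the other 4 libraries. Progenitor markers had their highest sum in NPC (739.5 and 599 TPM) and neuron markers in NC (2909 and 2617 TPM, all 5 at 1 TPM or more). The progenitor marker Nes overlapped between NPC (102 and 110 TPM) and NC (84.2 and 120 TPM). The NC libraries also held all 5 fibroblast markers at 1 TPM or more, summing to 599 and 678 TPM against 6.01 to 49.9 TPM in the other libraries. Astrocyte markers summed to 157 TPM in NC replicate 1 and 48.8 TPM in replicate 2. Fewer cells of a type and less RNA per cell cannot be told apart in such bulk samples.

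Each of the 37 genes on the mitochondrial chromosome was listed at 0 in every library. In their place, the copies on chromosome 1 had a high level. They are annotated as unprocessed pseudogenes on the minus strand of build mm10, between 24611535 and 24616197, and follow the gene order of the mitochondrial chromosome. Read 5′ to 3′, Gm29216 (24615706 to 24616197) matches the last part of mt-Co1. It is followed by Gm28661 (24614885 to 24615565, mt-Co2), Gm10925 (24613974 to 24614651, mt-Atp6) and Gm28437 (24613189 to 24613971, mt-Co3). The last are Gm28438 (24612775 to 24613119, mt-Nd3), Gm10222 (24612407 to 24612700, mt-Nd4l) and Gm28439 (24611535 to 24612410, mt-Nd4). Gm29216 covers 31.8% of mt-Co1 and Gm28439 63.6% of mt-Nd4, and the last pair overlap by 4 bases.

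The transcript sequences of GENCODE vM21 show how close the copies are to the mitochondrial genes. Of 4149 bases compared, 4142 were identical, and 5 of the 7 copies were identical throughout. All 7 differences lie in the 2 stretches printed here, where capitals mark the differing bases. The first pair is the start of Gm29216 against bases 1054 to 1106 of mt-Co1, and the second the first 43 bases of Gm28438 and of mt-Nd3.
Gm29216: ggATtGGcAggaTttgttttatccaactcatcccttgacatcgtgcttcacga
mt-Co1: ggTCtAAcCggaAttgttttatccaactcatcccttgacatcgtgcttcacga
Gm28438: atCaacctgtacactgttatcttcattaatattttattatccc
mt-Nd3: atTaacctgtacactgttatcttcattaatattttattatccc
Counted from base 1 of the mitochondrial gene, the differences are T1056A, C1057T, A1059G, A1060G, C1062A and A1066T in Gm29216 and T3C in Gm28438. After them, Gm29216 runs for 479 bases and Gm28438 for 342 bases without a difference. A read from inside these runs, or from any of the other 5 copies, has the same sequence whether it came from chromosome 1 or from the mitochondrial chromosome. The values of the copies are therefore given as the deposited level of these 7 gene models, and the part of either source in them was not tested.

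Other nuclear copies of mitochondrial genes are further from the original. Gm13341 on chromosome 2 is 95.9% identical to mt-Co2, and a stretch of 90 bases shows the contrast. The stretch is bases 439 to 528 of Gm28661 and of mt-Co2 and bases 427 to 516 of Gm13341, with the bases that differ from mt-Co2 in capitals.
mt-Co2: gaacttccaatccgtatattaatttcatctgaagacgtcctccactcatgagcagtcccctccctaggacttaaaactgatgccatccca
Gm28661: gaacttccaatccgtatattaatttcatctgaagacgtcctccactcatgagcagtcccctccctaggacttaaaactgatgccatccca
Gm13341: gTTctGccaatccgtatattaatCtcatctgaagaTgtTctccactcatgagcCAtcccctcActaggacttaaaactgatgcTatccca
Gm13341 differs at 10 of these bases and Gm28661 at 0.

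The copies were among the most abundant transcripts listed, with 4 of the 7 above every nuclear member in every library, and all 7 rose from NPC to NC. Their summed level was 19586 and 20602 TPM in mESC, 17572 and 15529 TPM in NPC, and 26585 and 42702 TPM in NC. As a share of all TPM this is 1.96% and 2.06% for mESC, 1.76% and 1.55% for NPC, then 2.66% and 4.27% for NC. Both NC libraries lay above the other 4, and NC replicate 2 stood at 1.61 times replicate 1.

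Gm28661, the copy of the gene for subunit 2 of cytochrome c oxidase, was listed at 4909 and 4917 TPM in mESC, 4079 and 3640.1 TPM in NPC, and 6214 and 9551 TPM in NC. Gm29216, the copy of the end of the gene for subunit 1, was listed at 3776 and 4182 TPM in mESC, 4118 and 3489.8 TPM in NPC, and 6689.8 and 12668 TPM in NC. Gm28437, the copy for subunit 3, stood at 4637 and 4491 TPM, then 3406 and 3401 TPM, then 5083 and 7281 TPM. For each of the 3, the groups NC and NPC did not overlap, and NC lay above mESC. The highest single value was that of Gm29216 in NC replicate 2.

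Gm10925, the copy for ATP synthase subunit 6, had 3597 and 4222 TPM in mESC, 3387 and 2854 TPM in NPC, and 4666 and 7093 TPM in NC. The 3 copies of complex I genes were lower throughout. Gm28439 (mt-Nd4) had 906 and 942 TPM in mESC, 896 and 757 TPM in NPC, and 1412 and 2235 TPM in NC. Gm10222 (mt-Nd4l) had 1126 and 1098 TPM, then 1157 and 871 TPM, then 1719 and 2820.4 TPM. Gm28438 (mt-Nd3) was the lowest copy in every library, at 635 and 749.8 TPM, then 529 and 517 TPM, then 802 and 1053 TPM.

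**Figure D1:**
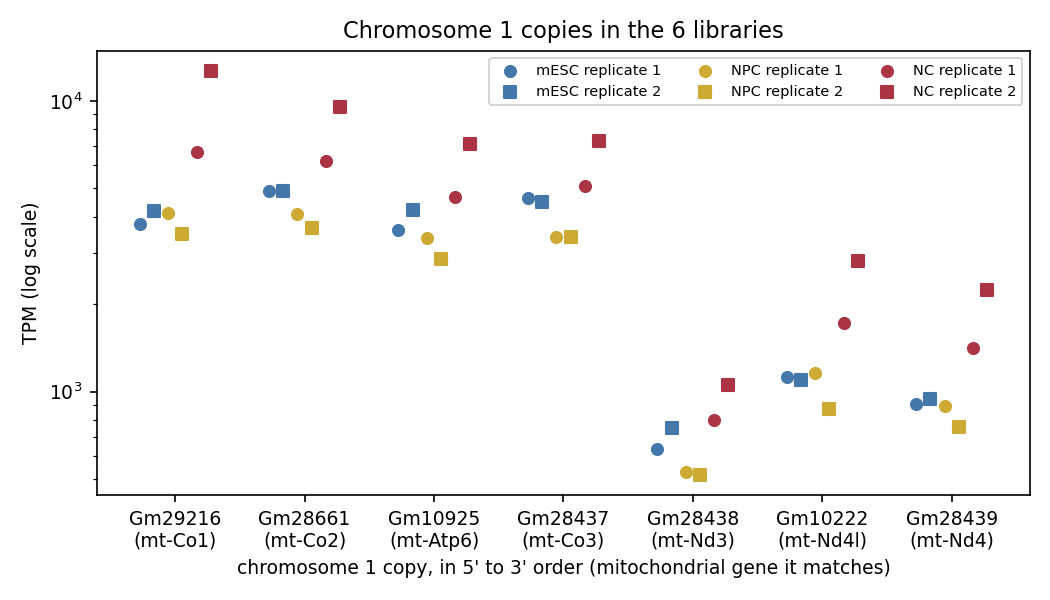
TPM (log scale) of the 7 chromosome 1 copies in each library of mESC, NPC and NC, 1 point per library. In each copy both NC libraries lie above both NPC libraries, and NC replicate 2 lies above NC replicate 1.

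Between NPC and NC, limma called 7 of 7 copies higher in NC, where 15.2% of all tested genes were called higher and 10.1% lower. The log2 fold changes ran from 0.81 (Gm28438, SE 0.18, adjusted p = 0.0205 by limma) to 1.28 (Gm29216, SE 0.32, adjusted p = 0.03 by limma), with a median of 1.00 against 0.11 over all tested genes. The calls were fewer under other choices: 3 copies with median-of-ratios scaling or FPKM and 4 with quantile normalization, 0 with a filter above 0 or with only the compared groups, 1 without either mESC library, 0 without either NPC library, and 1 without NC replicate 2. The median without NC replicate 2 was 0.69. With quantile normalization, which compresses the highest ranks, the log2 fold change of Gm28661 was 0 (adjusted p = 1 by limma). Against mESC, 3 of 7 copies were called higher in NC, where 37.8% of all tested genes were: Gm29216 (log2 1.21, SE 0.32, adjusted p = 0.0155 by limma), Gm10222 (0.98, SE 0.26, adjusted p = 0.0174) and Gm28439 (0.94, SE 0.24, adjusted p = 0.0131). The median of the 7 was 0.65 against 0.31 over all tested genes, and 0 were called with median-of-ratios scaling, with a filter above 0 or without either mESC library, 2 without NC replicate 2 and 7 without NC replicate 1. From mESC to NPC 0 of 7 were called by limma, with 0 at an unadjusted p under 0.05, and the median log2 fold change was -0.33. NC replicate 2 had less than replicate 1 of the summed astrocyte markers (48.8 against 157 TPM) and progenitor markers (177 against 307 TPM, with Hes5 at 13.7 against 131 TPM and Pax6 at 33.5 against 78.5 TPM). Within the progenitor list, Sox1 was also lower (9.89 against 14.0 TPM), while Nes was higher (120 against 84.2 TPM). The sums of neuron and fibroblast markers were closer, although the fibroblast markers Col3a1 (502 against 244 TPM) and Col1a2 (94.7 against 235 TPM) differed in opposite directions. The part of any of these in the level of the copies was not tested.

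The copies did not keep a fixed ratio to each other. Gm29216 stood at 0.769 and 0.851 times Gm28661 in mESC, 1.01 and 0.959 times in NPC and 1.08 and 1.33 times in NC. Gm28437 went the other way, at 0.945 and 0.913 times Gm28661 in mESC and 0.818 and 0.762 times in NC.

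The nuclear genes had no such rise in sum. Their summed level was 18018 and 18808 TPM in mESC, 17068 and 17068 TPM in NPC, and 18167 and 17370.2 TPM in NC, so the highest library stood little above the lowest. The ratio of the summed copies to the summed nuclear genes was 1.09 and 1.10 for the mESC libraries. It was 1.03 and 0.910 for NPC, then 1.46 and 2.46 for NC. On the deposited coverage, which is not scaled to the library, the ratio was 2.01 and 2.01, 1.82 and 1.59, and 2.57 and 4.29, so its order between stages was the same.

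**Figure D2:**
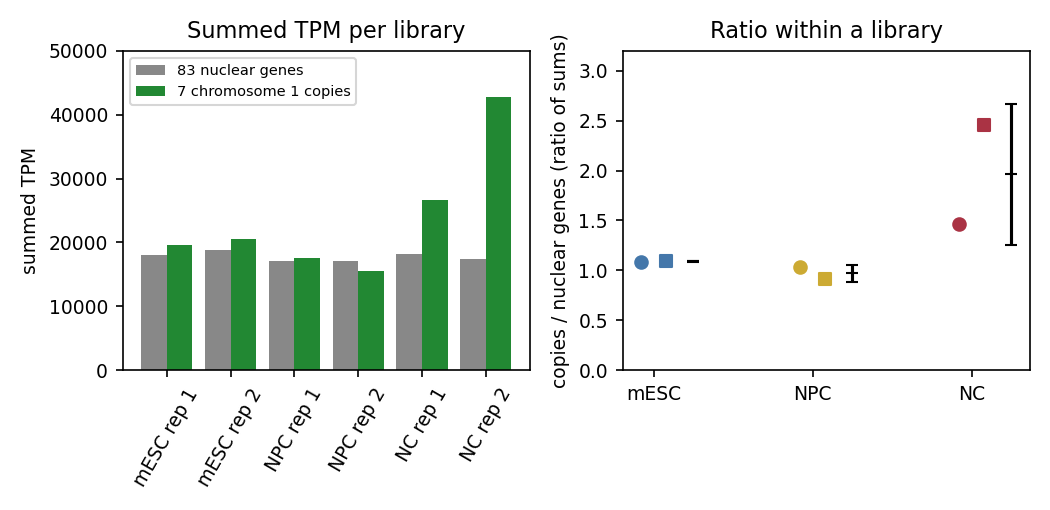
Left, the summed TPM of the chromosome 1 copies and of the nuclear respiratory chain genes in each library. Right, the ratio of the sums, with points for libraries and mean ± SD (n = 2) per stage: 1.09 ± 0.0059 in mESC, 0.970 ± 0.085 in NPC and 1.96 ± 0.70 in NC.

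Among the less similar nuclear copies, 6 of 9 tested were called higher in NC than in NPC and 6 of 9 higher than in mESC, with medians of 0.80 and 0.59. Over all tested genes, 15.2% and 37.8% were called higher in these comparisons, with medians of 0.11 and 0.31. Gm13340 on chromosome 2, 97.6% identical to mt-Co1, had 403 and 442 TPM in mESC, 419 and 425 TPM in NPC, and 767 and 878 TPM in NC. Its log2 fold change from NPC to NC was 0.96 (SE 0.14, adjusted p = 0.00626 by limma). Gm13341 had 433 and 438 TPM, then 352 and 335 TPM, then 584 and 743 TPM. The 2 NC libraries were closer for these genes than for the copies, although the ranges nearly met. For the copies, replicate 2 stood at between 1.31 (Gm28438) and 1.89 (Gm29216) times replicate 1. For the less similar genes with a mean of at least 1 TPM, it stood at between 0.844 (Gm12155) and 1.27 (Gm13341) times, with 1.14 for Gm13340.

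**Figure D3:**
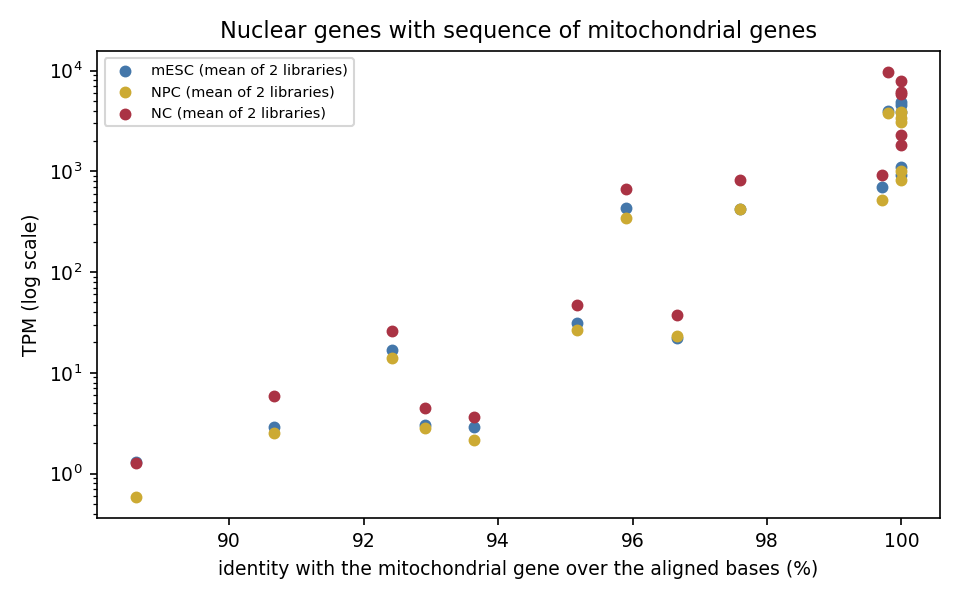
Mean TPM per stage (log scale) of the nuclear genes that resemble a mitochondrial gene, against the percent identity of the best alignment, for genes with a mean of at least 1 TPM. The 7 chromosome 1 copies lie at the right edge with the highest levels, and less similar genes such as Gm13341 (95.9%) lie lower.

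The nuclear members were an even group across the stages. The highest stage mean lay within 1.5-fold of the lowest for 66 of 79 members (83.5%), against 3999 of 20232 tested genes (19.8%). Among genes with a mean of at least 25 TPM the counts were 65 of 76 members (85.5%) and 2397 of 7980 genes (30.0%). The median fold between highest and lowest stage was 1.31 for members and 2.53 for all tested genes. Of the 79 members, 52 were called in no comparison. The matching count over all tested genes is not given here, so the 52 do not set the members apart. The widest ranges were those of Cox7a1 (7.28-fold), Cox4i2 (3.91), Cox6b2 (1.92), Atp5g1 (1.87) and Atp5b (1.70).

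From mESC to NPC, 3 of the 79 members were called higher and 13 lower by limma, where 26.0% of all tested genes were called higher and 14.0% lower. From NPC to NC, 4 were called higher and 0 lower, with 13 members at an unadjusted p under 0.05, where 15.2% of all tested genes were called higher and 10.1% lower. Between mESC and NC, 10 were called higher and 7 lower, where 37.8% of all tested genes were called higher and 22.1% lower. The median log2 fold changes of the members were 0.02, 0.15 and 0.10 for the 3 comparisons, against 0.18, 0.11 and 0.31 over all tested genes.

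These counts moved with the scaling. With median-of-ratios scaling, which put the medians over all tested genes at -0.02, 0.04 and 0.03, the members called higher and lower were 0 and 18 from mESC to NPC, 0 and 0 from NPC to NC, and 0 and 20 between mESC and NC. With quantile normalization they were 5 and 7, 3 and 2, and 13 and 6. With FPKM they were 1 and 14, 0 and 4, and 0 and 21. Over all tested genes, the calls between mESC and NC were 7656 higher and 4462 lower as deposited, 6171 and 5793 with median-of-ratios scaling, and 5565 and 6234 with quantile normalization. From mESC to NPC they were 5268 and 2832, then 4239 and 3953, then 3963 and 3771. From NPC to NC they were 3079 and 2044, then 2631 and 2188, then 2540 and 2790. The counts with FPKM, and those below without 1 library, stand without the share over all tested genes. They are therefore no result about the members as against other genes. Single libraries mattered as well: the 13 lower members of NPC were 2 without NPC replicate 1 and 1 without replicate 2, and 8 or 6 without replicate 1 or 2 of mESC. The 3 higher members of NPC were 0 without NPC replicate 2 or mESC replicate 2, 1 without NPC replicate 1, and 6 and 5 without NC replicate 1 or 2. The 4 higher members of NC against NPC were 0 without either NPC library and 2 without NC replicate 2. The 10 higher members of NC against mESC were 3 without mESC replicate 1 and 6 without either NPC library, and the 7 lower were 4 without NC replicate 2. Of 37 calls of nuclear members, 3 held under all 15 alternatives: Cox7a1 in NPC and in NC against mESC, and Ndufa7 in NC against mESC.

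**Figure D4:**
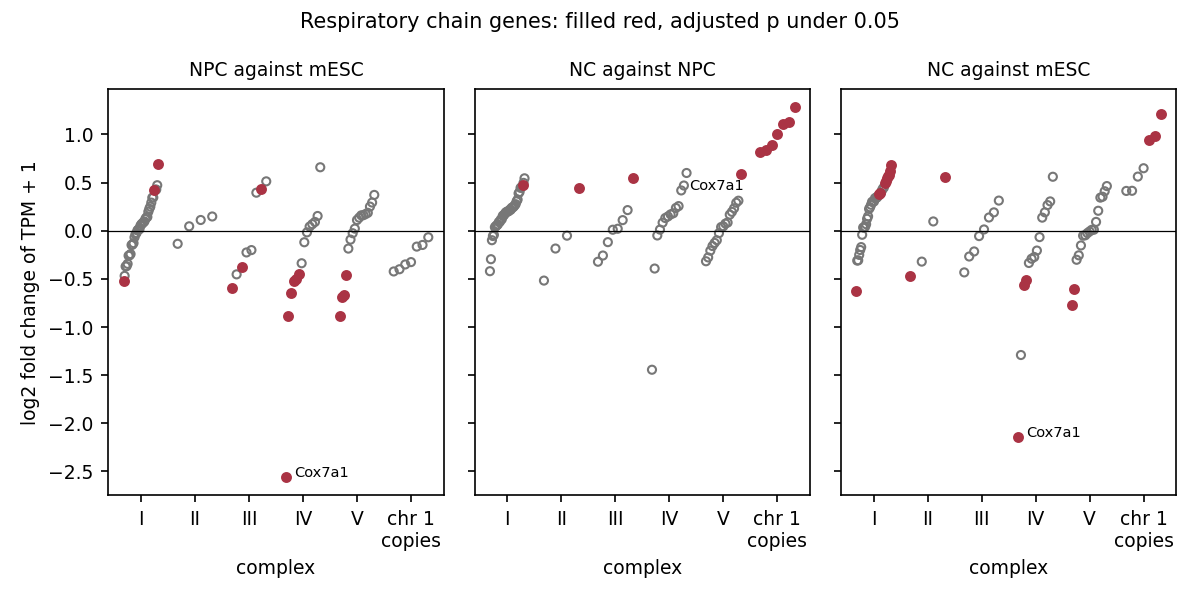
log2 fold change (limma, on log2(TPM + 1)) of each tested nuclear member by complex and of the 7 chromosome 1 copies, 1 panel per comparison, with called genes filled in red. Most nuclear members lie near 0, and Cox7a1 in complex IV lies farthest below it in both comparisons with mESC.

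Complex I, the NADH dehydrogenase, held 9 of the 10 members called higher in NC than in mESC, out of its 36 tested subunits, and 1 of the 7 called lower. Of all tested genes, 37.8% were called higher in this comparison, a larger share than 9 of 36. Its summed level was 4959 and 5010.0 TPM in mESC, 5041 and 5121 TPM in NPC, and 5707 and 5471 TPM in NC. Among the catalytic subunits that carry iron-sulfur clusters, Ndufs8 had 85.2 and 84.4 TPM in mESC, 92.5 and 95.1 TPM in NPC, and 131 and 118 TPM in NC. Its log2 difference between NC and mESC was 0.55 (SE 0.13, adjusted p = 0.00976 by limma), and the groups did not overlap. Ndufs1, the largest subunit, had 109.8 and 120.3 TPM in mESC and 127 and 146 TPM in NC, and was not called. Ndufv1, which binds the flavin that takes electrons from NADH, had 393 and 282 TPM in mESC, 261 and 263 TPM in NPC, and 279 and 258 TPM in NC, and was called in 0 of the 3 comparisons. Ndufs7 (134 and 134 TPM in mESC, 138 and 138 TPM in NC) and Ndufv2 (96.6 and 98.0 TPM against 109 and 90.9 TPM) had log2 differences of 0.04 and 0.03 and no call.

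The other members of complex I that were higher in NC than in mESC were Ndufs5 (log2 0.68), Ndufs4 (0.62), Ndufs3 (0.58), Ndufb9 (0.56), Ndufa3 (0.52), Ndufa8 (0.49), Ndufa10 (0.39) and Ndufb5 (0.38), with adjusted p by limma between 0.0105 and 0.0468. Ndufs4, an accessory subunit whose loss impairs the complex, had 58.6 and 54.1 TPM in mESC, 81.9 and 70.7 TPM in NPC, and 91.6 and 82.4 TPM in NC. All 10 higher calls of NC against mESC, Sdhb included, were lost with median-of-ratios scaling and with FPKM.

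Ndufa7, an accessory subunit of complex I, went the other way. It had 373 and 417 TPM in mESC, 272 and 275 TPM in NPC, and 245 and 267 TPM in NC, with both mESC libraries above the other 4. Its log2 fold change was -0.52 in NPC (SE 0.13, adjusted p = 0.0191 by limma) and -0.62 in NC (SE 0.13, adjusted p = 0.00629). In NPC, Ndufb11 and Ndufa6 were called higher than in mESC. Ndufb11 had 124 and 109 TPM in mESC, 174 and 204 TPM in NPC, and 148 and 133 TPM in NC, a log2 difference of 0.69 in NPC (SE 0.15, adjusted p = 0.0115). It overlaps Rbm10 on the other strand by 117 bases, and it is not known here whether the counting used strand. Ndufa6 had 284 and 266 TPM in mESC and 382 and 354 TPM in NPC (log2 0.42, adjusted p = 0.0364 by limma).

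Complex II, succinate dehydrogenase, has 4 subunits and none from mitochondrial DNA. Its sum stayed between 599 and 638.5 TPM in the 6 libraries, while its subunits moved apart. Sdhb, the iron-sulfur subunit, had 207 and 210.5 TPM in mESC, 229 and 222 TPM in NPC, and 309 and 305 TPM in NC. It was called higher in NC than in mESC (log2 0.55, SE 0.12, adjusted p = 0.00666 by limma) and than in NPC (0.44, adjusted p = 0.0364). Sdhd, a membrane anchor, had 139 and 185 TPM in mESC, 165 and 165 TPM in NPC, and 117 and 113 TPM in NC, and was called lower in NC than in mESC (-0.47, adjusted p = 0.0435). Sdha, the flavoprotein, had 191 and 162 TPM in mESC and 136 and 146 TPM in NC (-0.32, adjusted p = 0.0834 by limma), and Sdhc was not called.

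In complex III, the cytochrome bc1 complex, 1 of 8 tested subunits was called higher and 2 lower in NPC against mESC. Of all tested genes, 26.0% were called higher and 14.0% lower in this comparison. Uqcrq, a small subunit at the membrane, had 133 and 143 TPM in mESC, 93.6 and 87.9 TPM in NPC, and 128 and 137 TPM in NC, so that NPC alone was low. Its log2 fold change was -0.60 in NPC against mESC (SE 0.13, adjusted p = 0.0105 by limma) and 0.54 in NC against NPC (adjusted p = 0.0248). The core subunits Uqcrc1 and Uqcrc2 moved in opposite directions from mESC to NPC. Uqcrc1 went from 325 and 316 TPM to 253 and 239.8 TPM (-0.38, adjusted p = 0.044 by limma), and Uqcrc2 from 118 and 108 TPM to 153 and 152 TPM (0.43, adjusted p = 0.0384). Uqcrfs1, the Rieske iron-sulfur protein, had 113 and 128 TPM in mESC and 153 and 163 TPM in NPC (0.39, adjusted p = 0.0846 by limma). Cyc1, a subunit of this complex outside the symbol pattern, is not in these counts. It had 249 and 279 TPM in mESC, 183 and 206 TPM in NPC, and 191 and 191 TPM in NC. Against mESC it was called lower in NPC (-0.44, adjusted p = 0.0393 by limma) and in NC (-0.46, adjusted p = 0.0225 by limma). The 2 calls held under 8 and 9 of 15 alternatives.

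Complex IV held 6 of the 13 members called lower in NPC, among its 14 tested subunits, and 0 called higher. Of all tested genes, 14.0% were called lower and 26.0% higher in this comparison. Among these 6 calls, only that of Cox7a1 held under all 15 alternatives. The sum of complex IV was 4499 and 4576 TPM in mESC, 3766 and 3766 TPM in NPC, and 3996 and 4282 TPM in NC, with mESC above the other 4 libraries. The median of its tested subunits did not separate in this way. It was 229 and 241 TPM in mESC, 214 and 226 TPM in NPC, and 223 and 234 TPM in NC. Cox4i1, the common form of a regulatory subunit and the most abundant of the complex, had 1289 and 1398 TPM in mESC, 945 and 927 TPM in NPC, and 919 and 969 TPM in NC. It was called lower in NPC (-0.52, SE 0.14, adjusted p = 0.0238 by limma) and in NC (-0.51, adjusted p = 0.0173). With quantile normalization its value for NC against mESC was 0.05 and not called. Cox5a, which with Cox5b is part of the matrix side of the complex, had 236 and 233 TPM in mESC, 164 and 166 TPM in NPC, and 199 and 173 TPM in NC (NPC against mESC -0.50, adjusted p = 0.0214). Cox5b had 228 and 228 TPM in mESC and 230.0 and 295 TPM in NC without a call.

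Several subunits of complex IV exist in alternative forms, some of them known from heart and skeletal muscle or testis. Cox7a1, the form known from heart and skeletal muscle, had 24.6 and 23.6 TPM in mESC, 3.93 and 2.68 TPM in NPC, and 5.72 and 3.83 TPM in NC. Both mESC libraries stood far above the other 4, which overlapped between NPC and NC. The log2 fold change was -2.56 in NPC (SE 0.27, adjusted p = 0.000747 by limma) and -2.14 in NC (SE 0.27, adjusted p = 0.000849). Its counterpart Cox7a2, the form made in most tissues, had 220 and 259 TPM in mESC, 264 and 237 TPM in NPC, and 285 and 305 TPM in NC, and was not called. Cox7a1 was thus the minor form in every library, at 0.112 and 0.0911 times Cox7a2 in mESC and between 0.0113 and 0.0201 times in the others. Of 6 striated muscle markers, 1 or 2 reached 1 TPM in any library, and their sum was 5.38 and 5.50 TPM in mESC, 3.73 and 2.06 TPM in NPC and 3.74 and 10.7 TPM in NC. Within that list, Myh3 had 1.96 and 1.73 TPM in mESC and 0.407 to 0.926 TPM elsewhere, and Actc1 had 2.68 and 3.21 TPM in mESC, 1.67 and 1.22 TPM in NPC, and 1.56 and 3.72 TPM in NC. Tnnt2 went the other way, with 0.488 and 0.169 TPM in mESC, 0.169 and 0.330 TPM in NPC, and 1.57 and 4.47 TPM in NC. Tnni1 was highest in NPC replicate 1 (1.48 TPM). Myog was listed at 0 in every library except NC replicate 2 (0.75 TPM), and Ckm in every library except mESC replicate 1 (0.25 TPM). Their part in the level of Cox7a1 was not tested. Cox7a2l, which helps respiratory complexes to join into supercomplexes, had 152 and 125 TPM in mESC, 207 and 230.1 TPM in NPC, and 216 and 127 TPM in NC, and was not called.

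Cox6b2, the form known from testis, had 231 and 138 TPM in mESC, 93.3 and 98.8 TPM in NPC, and 160 and 133 TPM in NC. Its mESC libraries lay far apart, and it was called lower in NPC (-0.89, SE 0.25, adjusted p = 0.0284 by limma). Cox6b1, the common form, had 204 and 249 TPM in mESC, 222 and 260.5 TPM in NPC, and 281 and 394 TPM in NC (NC against mESC 0.56, adjusted p = 0.0512 by limma). Cox7b had 229 and 251 TPM in mESC, 159 and 147 TPM in NPC, and 181 and 145 TPM in NC, and was called lower in NPC (-0.65, adjusted p = 0.0159) and in NC (-0.56, adjusted p = 0.0177). Cox4i2, the form of Cox4i1 known from lung, was low and uneven at 8.08 and 2.701 TPM in mESC, 7.52 and 3.88 TPM in NPC, and 2.11 and 0.803 TPM in NC, and was not called.

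The common forms Cox6a1 (560 to 804 TPM), Cox6c (159 to 215 TPM) and Cox8a (379 to 424 TPM) were called in 0 comparisons by limma. Their counterparts Cox6a2, known from heart and skeletal muscle, and Cox8c, known from testis, were listed at 0 in all 6 libraries. Cox8b was listed at 0 except for 1.12 TPM in NC replicate 2, and Cox7b2 had 0.902 and 0.676 TPM in mESC and was listed at 0 elsewhere. These 4 genes are the members that did not pass the filter.

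**Figure D5:**
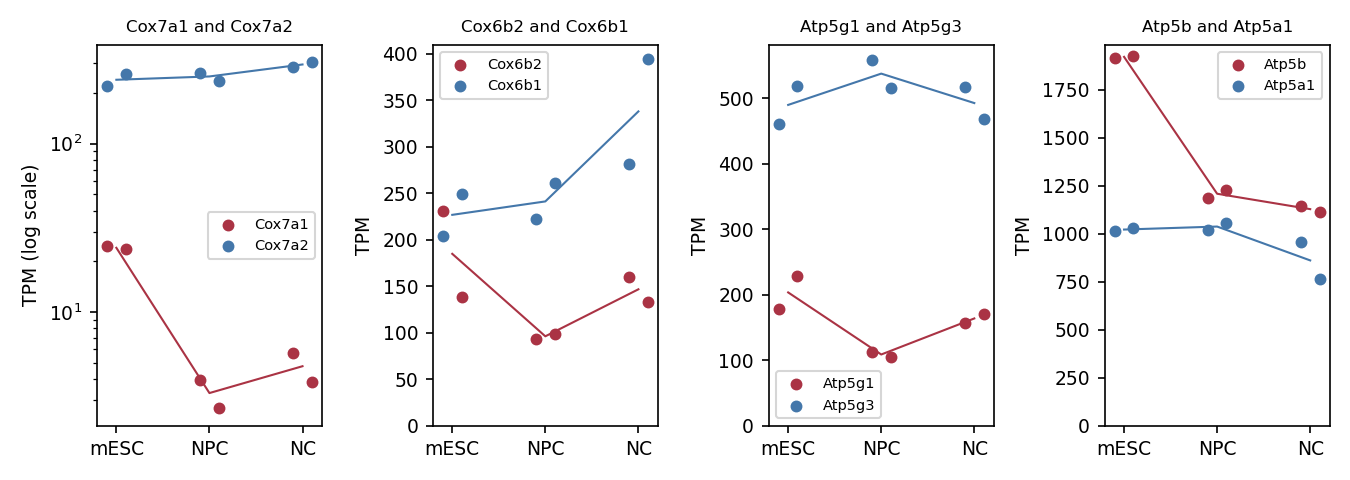
TPM of paired subunits by stage, 1 point per library with lines through the stage means (log scale for Cox7a1 and Cox7a2, linear from 0 for the others). Cox7a1 falls from 24.6 and 23.6 TPM in mESC while Cox7a2 stays above 200 TPM, and Atp5b falls while Atp5a1 stays between 765 and 1057 TPM.

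Complex V, the ATP synthase, had 4 of 17 members called lower in NPC against mESC and 0 higher. Of all tested genes, 14.0% were called lower and 26.0% higher in this comparison. Atp5b, the catalytic beta subunit, was the most abundant nuclear member, with 1916 and 1926 TPM in mESC, 1188 and 1228 TPM in NPC, and 1145 and 1111 TPM in NC. Both mESC libraries lay above the other 4, with a log2 fold change of -0.67 in NPC (SE 0.14, adjusted p = 0.00941 by limma) and -0.77 in NC (SE 0.14, adjusted p = 0.00338). With quantile normalization the value in NC was -0.19 and not called. Atp5a1, the alpha subunit that alternates with beta in the same ring, had 1012 and 1031 TPM in mESC, 1016 and 1057 TPM in NPC, and 956 and 765 TPM in NC, and was not called. The ratio of Atp5b to Atp5a1 went from 1.89 and 1.87 in mESC to 1.17 and 1.16 in NPC, with 1.20 and 1.45 in NC.

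The membrane ring of the ATP synthase is made of subunit c, for which 3 genes code. Atp5g1 had 178 and 229 TPM in mESC, 112 and 105 TPM in NPC, and 157 and 170.4 TPM in NC. It was called lower in NPC than in mESC (-0.89, SE 0.16, adjusted p = 0.00553 by limma) and higher in NC than in NPC (0.59, adjusted p = 0.0389). Atp5g3, the highest of the 3 as deposited, had 460.2 and 519 TPM in mESC, 559 and 516 TPM in NPC, and 516 and 468 TPM in NC. Atp5g2 had 188 and 166 TPM, then 216 and 218 TPM, then 182 and 166 TPM, and neither was called. Gm10175 and Gm10231 are identical to Atp5g2 over 645 and 441 bases. Their means were 182 and 196 TPM, against 189 TPM for Atp5g2, so the order of Atp5g2 and Atp5g3 is that of the deposited values only. Atp5sl, a relative of an ATP synthase factor chosen here by its symbol, had 45.3 and 40.3 TPM in mESC, 29.3 and 23.4 TPM in NPC, and 30.02 and 25.4 TPM in NC, and was called lower in NPC (-0.68, adjusted p = 0.0263) and in NC (-0.61, adjusted p = 0.0271).

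Near-identical pseudogenes limit some of these values. Of the 79 members, 20 had another gene model with at least 95% identity over at least 200 bases, and for 7 of them these models together reached at least 50% of the member's own mean TPM. BC002163 had a mean of 141 TPM against 35.9 TPM for Ndufs5, and Gm15920 had 156 TPM against 93.9 TPM for Ndufa12. Gm10221 had 278 TPM against 191 TPM for Atp5l and is identical to it over 309 bases. With such pseudogenes added to the member, Atp5g1 was not called in NC against NPC (0.52, adjusted p = 0.0581 by limma), and Ndufs5 remained called in NC against mESC (0.50, adjusted p = 0.0118). Opposite-strand genes with a mean of 1 TPM or more overlap 19 members, such as Cox4i1 with Emc8 and Atp5f1 with Wdr77.

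Promoters of respiratory chain genes are known for sites of the nuclear respiratory factor NRF1, whose core motif is a palindrome of 10 letters. In RefSeq windows on GRCm38.p6 from 250 bases before to 50 bases after the start, 64 of the 79 members had an entry, with 69 promoters. The motif, which reads the same on both strands, was in 5 of 69 (7.25%), against 264 of 13816 promoters (1.91%) of all protein-coding genes that passed the filter. The 4 windows in which it lies before the start are printed with the motif in capitals, since its share was the one that differed most from other genes among the 4 motifs searched.
Ndufa11: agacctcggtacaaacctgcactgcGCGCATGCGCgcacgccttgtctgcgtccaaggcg
Cox6a1: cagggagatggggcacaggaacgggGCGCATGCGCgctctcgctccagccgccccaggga
Atp5k: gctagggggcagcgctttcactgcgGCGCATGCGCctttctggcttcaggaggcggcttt
Atp5g2: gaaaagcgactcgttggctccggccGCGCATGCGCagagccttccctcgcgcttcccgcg
Each is written 5′ to 3′ on the strand of its gene and lies in the 250 bases before the start. These are chr17:56717512-56717761 (plus strand) for Ndufa11, chr5:115348959-115349208 (minus) for Cox6a1, chr5:108434400-108434649 (minus) for Atp5k and chr15:102671048-102671297 (minus) for Atp5g2. The motif begins 60 bases before the start in Ndufa11, 162 in Cox6a1, 50 in Atp5k and 42 in Atp5g2. The 5th is Uqcrc1. A match is a description of the letters and no evidence of binding. Ndufa11, Cox6a1, Atp5k and Atp5g2 were called in 0 comparisons, and Uqcrc1 was called lower in NPC. Nrf1 itself was called lower in NC than in mESC (-0.78, adjusted p = 0.0177 by limma). The shares were closer to those of other genes for the ETS motif CCGGAAGT (7.25% against 7.04%), for CCAAT (42.0% against 37.6%) and for TATAAA (8.70% against 7.22%), each searched on both strands.

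The genes that carry electrons and ATP to and from the chain were taken from lists of other mitochondrial genes, chosen by function. Cytochrome c has a common form, Cycs, with 51.9 and 67.7 TPM in mESC, 47.7 and 47.1 TPM in NPC, and 53.5 and 45.7 TPM in NC, not called. The testis form Cyct had 14.1 and 8.21 TPM in mESC and was listed at 0 in the other 4 libraries (adjusted p = 0.000312 by limma in NPC against mESC). Slc25a4, an ADP/ATP carrier, had 296 and 301 TPM in mESC, 417 and 417 TPM in NPC, and 439 and 399.7 TPM in NC, and was called higher in NPC (0.48, adjusted p = 0.0223) and in NC (0.49, adjusted p = 0.0139). Its relative Slc25a5 had 604 and 781 TPM in mESC, 401 and 399 TPM in NPC, and 569 and 367 TPM in NC, and was called lower in NPC (-0.78, adjusted p = 0.0387). The ratio of Slc25a4 to Slc25a5 was 0.491 and 0.385 for mESC, 1.04 and 1.05 for NPC, then 0.772 and 1.09 for NC. Ndufa4 (323 to 417 TPM), now known as a subunit of complex IV, and Ndufa4l2 (0.780 to 8.64 TPM) were called in 0 comparisons.

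Over all these other lists, 143 genes were tested. From mESC to NPC 13 were called higher and 33 lower, from NPC to NC 9 and 9, and between mESC and NC 26 and 46. The shares of all tested genes were 26.0% and 14.0%, 15.2% and 10.1%, and 37.8% and 22.1%. With median-of-ratios scaling the first and last were 7 and 52, and 11 and 67. From mESC to NPC they were 5 and 10 without NPC replicate 2, 6 and 15 without NPC replicate 1, 9 and 20 without mESC replicate 2, and 10 and 22 without mESC replicate 1.

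Of 12 genes for the entry of pyruvate, 4 were called higher and 6 lower in NC against mESC by limma. Of all tested genes, 37.8% were called higher and 22.1% lower in this comparison. Pdk1, a kinase that inhibits pyruvate dehydrogenase, had 186 and 141 TPM in mESC, 53.2 and 64.7 TPM in NPC, and 10.4 and 1.69 TPM in NC (NC against mESC -4.88, SE 0.61, adjusted p = 0.000751 by limma). Pdk4, of the same family, had 11.8 and 7.49 TPM in mESC and at most 0.604 TPM in the other libraries. Pdk2, also of the family, went the other way, from 6.70 and 6.82 TPM in mESC to 19.0 and 15.5 TPM in NPC and 26.1 and 19.9 TPM in NC (NC against mESC 1.62, adjusted p = 0.0011 by limma). Pdk3 had 30.9 and 32.8 TPM in mESC, 94.2 and 91.8 TPM in NPC, and 20.1 and 21.3 TPM in NC, so that NPC stood above both other stages. Pdp1, a phosphatase with the opposite action, had 7.53 and 6.28 TPM in mESC and 30.6 and 25.8 TPM in NC (NC against NPC 1.40, adjusted p = 0.00673 by limma). Pdp2, another such phosphatase, had 28.1 and 24.3 TPM in mESC and 17.5 and 16.9 TPM in NC, and was called lower (-0.58, adjusted p = 0.0252 by limma). The kinases and the phosphatases thus had members in both directions. Pdk2 and Pdp2 were chosen after their values were seen. In the citric acid cycle, Suclg2, a subunit of succinyl-CoA ligase, went from 66.2 and 67.6 TPM in mESC to 45.3 and 38.7 TPM in NPC and 14.9 and 9.71 TPM in NC.

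Among mitochondrial carriers related to uncoupling proteins, Slc25a27 had 10.9 and 5.59 TPM in mESC, 30.1 and 36.9 TPM in NPC, and 63.7 and 55.9 TPM in NC, with no overlap between stages (NC against mESC 2.78, SE 0.30, adjusted p = 0.000408 by limma). Ucp2 had 53.8 and 44.7 TPM in mESC, 15.2 and 9.96 TPM in NPC, and 35.7 and 22.3 TPM in NC, so that NPC was lowest. It was called lower in NPC than in mESC (-1.91, adjusted p = 0.00292 by limma) and higher in NC than in NPC (1.14, adjusted p = 0.0328). Slc25a14, chosen after its values were seen, had 3.70 and 4.93 TPM in mESC, 9.18 and 9.06 TPM in NPC, and 14.8 and 23.2 TPM in NC (NC against mESC 1.89, adjusted p = 0.00152 by limma). Ucp3 was listed at 0 in 4 libraries and at most 0.461 TPM in the others.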

How the data were processed

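RNA abundance was measured in 6 libraries, 2 per stage, grouped by sample title. Per the submitters' processing notes, the authors used StringTie 2.1.5, STAR 2.7.9a, cutadapt 3.4, FastQC, DESeq2 and R 4.0.3 on build mm10. The annotation release, strand use and treatment of reads with several matches were not given in the sources used here. Per the file headers, each table gives per gene a coverage, a signal of mean read depth, with FPKM and TPM as deposited by the authors. The deposited TPM was used, with FPKM and coverage as alternatives.

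Genes that reached 1 TPM in 2 or more libraries were tested with limma 3.58.1 (R 4.3.3, trend, two-sided) on log2(TPM + 1), all 6 libraries in 1 fit with 3 residual degrees of freedom, and adjusted by Benjamini-Hochberg over 20232 genes at 0.05. The script was tested on simulated data. Depth was estimated as the most common ratio of coverage to FPKM in a library. Between 38.3% and 39.7% of the genes compared lay within 0.1% of it. An exact permutation test of 2 against 2 libraries cannot go below p = 0.333. Fold changes on this scale understate those of low genes. Complexes follow the symbols.

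Members, lists and rules were chosen with earlier results of these data known. Named genes were all copies, the 10 largest called changes per direction, alternative subunits, core subunits and the 4 largest called changes of the other lists. A gene named by this rule is not reported here. Sdhc, Cyc1, Nrf1 and genes printed for sequence or overlap reasons were named outside the rule. Sequences came from GENCODE vM21 transcripts and RefSeq promoters (GRCm38.p6), compared with blastn 2.17.0.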

Additional observations from a re-analysis of the deposited data

How the results depend on the processing

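With 2 libraries per stage, few of the calls on members held under every choice. For NPC against mESC, the 3 members called higher became 0 with median-of-ratios scaling, 5 with quantile normalization, 1 with FPKM and 6 with only the compared groups, and ranged from 0 to 6 with 1 library left out. The 13 lower became 7 with quantile normalization and ranged from 1 to 12 with 1 library left out. For NC against NPC, the 4 higher became 0 with median-of-ratios scaling or FPKM and 2 with a filter above 0, and ranged from 0 to 5 with 1 library left out. The 0 lower became 2 with quantile normalization, 4 with FPKM and 1 with only the compared groups, and ranged from 0 to 1 with 1 library left out. For NC against mESC, the 10 higher became 0 with median-of-ratios scaling or FPKM and 6 with only the compared groups, and ranged from 3 to 13 with 1 library left out. The 7 lower became 20 and 21 with median-of-ratios scaling and FPKM and ranged from 4 to 8 with 1 library left out. Without a library the remaining one of its stage is assumed to vary like the other groups. Counts without a library, here and above, stand without the share over all tested genes, so they do not set the members apart from other genes. Of 2280 values for 152 results on single named genes, 1956 kept direction and side of the threshold or were called in no direction in either fit, 266 lost the call, 57 gained one, and 1 reversed: Cox4i1 in NC against mESC, 0.0487 with quantile normalization (adjusted p = 0.798 by limma). The ratio of copies to nuclear genes became 2.01, 1.70 and 3.43 in mESC, NPC and NC on the deposited coverage. The cause was not tested. No read counts were used, so depth sets no stated limit on these values. Adding near-identical pseudogenes was chosen after seeing the data.

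Libraries with the same replicate number showed little shared deviation (correlations 0.05, -0.08 and -0.07 over 20232 genes). The labels give no pairing, and with 1 replicate difference per stage these values cannot exclude it. With a replicate block the members called higher and lower were 1 and 9 for NPC against mESC, 0 and 1 for NC against NPC, and 8 and 7 for NC against mESC. The shares over all tested genes with this block are not given here.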

Other observations

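Of 23 listed genes of import, outer membrane, chaperones and membrane dynamics, 4 were called higher and 15 lower in NC against mESC by limma, where 37.8% of all tested genes were called higher and 22.1% lower. The median log2 fold change was -0.75 against 0.31 over all tested genes. The genes named in this paragraph and the next were chosen after their values were seen. Among the lower were the outer membrane import receptor Tomm20 (-1.21, adjusted p = 0.00124) and channel Tomm40 (-1.40, adjusted p = 0.000434), the prohibitins Phb (-1.29, adjusted p = 0.00109) and Phb2 (-1.67, adjusted p = 0.000458), the chaperonins Hspd1 (-1.52, adjusted p = 0.00108) and Hspe1 (-1.58, adjusted p = 0.000492), and Vdac1 (-0.96, adjusted p = 0.00397). The 4 higher genes act in fusion and fission of mitochondria: Mfn2 (2.06, adjusted p = 7.12e-05), Mfn1 (0.68, adjusted p = 0.00993), Opa1 (0.45, adjusted p = 0.0383) and Dnm1l (0.38, adjusted p = 0.036). The lower count was between 13 and 17 under the 15 alternatives. With median-of-ratios scaling 1 gene was called higher, and Mfn2 was called under all 15, while Opa1 and Dnm1l were called under 5 each. In NPC against mESC the list had 1 higher and 12 lower (26.0% and 14.0% of all tested genes), which fell to 4 lower without NPC replicate 2, 5 without mESC replicate 2 and 6 without NPC replicate 1.

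Of 21 listed genes of mitochondrial DNA upkeep and expression, 1 was called higher and 10 lower in NC against mESC by limma, beside the same 37.8% and 22.1% of all tested genes, with a median log2 fold change of -0.49. The lower ones included Tfam (-0.93, adjusted p = 0.00461), which packages mitochondrial DNA and starts its transcription, the polymerase subunit Polg (-1.06, adjusted p = 0.00444) and the nuclease Mgme1 (-2.04, adjusted p = 0.000162), and all 3 were called under all 15 alternatives. In the same comparison 7 of 7 chromosome 1 copies had a log2 fold change above 0, with 3 called higher. Over all tested genes, 12041 of 20232 were above 0, with 37.8% called higher and 22.1% lower. Of 9 tested regulators of mitochondrial biogenesis, 1 was called higher, Esrra (0.86, adjusted p = 0.00614), and 4 lower, among them Gabpa (-1.39, adjusted p = 0.00082) and Pprc1 (-1.77, adjusted p = 0.00164), beside the same shares. Gabpa overlaps the member Atp5j on the opposite strand by 701 bases. NC also held the fibroblast markers given above (599 and 678 TPM), and their part in these counts was not tested.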
